A study of Mus musculus with 5 samples.

Results

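The genes described here encode the proteasome and the immunoproteasome. They were taken by a rule on names, and the choice was made with earlier results of these data known. The rule took every gene whose symbol starts with Psma, Psmb, Psmc, Psmd or Psme followed by a number. A probe set with a single gene symbol was also required, and 44 of the 18193 genes measured met the rule. Where a gene had several probe sets, the brightest on average across the 5 arrays was used. Of the 44 genes, 42 encode proteasome subunits, activators or assembly chaperones. The other 2, Psmc3ip and Psme3ip1, are named after a subunit that their product binds and are not subunits themselves.

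The 26S proteasome degrades proteins tagged with ubiquitin. Its core particle, the 20S proteasome, is a barrel of outer alpha rings and inner beta rings, and the proteolytic sites lie on the beta subunits encoded by Psmb6, Psmb7 and Psmb5. The 19S regulatory particle caps the barrel, binds ubiquitin chains and unfolds the substrate with a ring of ATPases (Psmc genes) before threading it into the core. Interferon-gamma is known to induce Psmb9, Psmb10 and Psmb8, whose products take the places of those of Psmb6, Psmb7 and Psmb5 in newly built particles to form the immunoproteasome. It also induces Psme1 and Psme2, the alpha and beta subunits of the PA28 activator. The immunoproteasome is abundant in lymphocytes and favours the cutting of peptides that fit MHC class I.

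RNA was measured on 5 Affymetrix mouse expression arrays, with CXCR6 Hi CD3+CD4+ T cells on 2 arrays, CXCR6 Lo CD3+CD4+ T cells on 2 arrays and CD45Rb Hi naive CD3+CD4+ T cells on 1 array. Both CXCR6 subsets were sorted from the colonic lamina propria (LP) of Rag1-/- mice, which have no T or B cells of their own, some weeks after the transfer of CD45RBhigh CD4+ T cells from BALB/c spleens had caused colitis. The naive cells are placed in the spleen of BALB/c mice by the study's methods and by 1 label, while another label places them in the LP of healthy mice, and the labels give BALB/c as the strain of all samples. LP cells were freed with collagenase and splenocytes without it. CXCR6 is a chemokine receptor of activated T cells, and Cxcr6 had signals of 184 and 225 on the CXCR6 Hi arrays, against 58.1 and 25.3 on the CXCR6 Lo arrays and 10.5 on the naive array. The labels call the subset arrays biological replicates and do not give the number of mice in each sample, so every p-value here reflects the spread of these few arrays and nothing more. Signals are linear, and the median signal of each array is 1. They can be compared between arrays for a gene but not between genes, because probe sets differ in brightness.

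The naive array stood apart from the LP arrays across all genes. Across genes, which are not independent replicates, Spearman's correlation within LP samples ran from 0.951 to 0.957 and that of LP with naive samples from 0.821 to 0.826. For the Dap control RNA, which is added during preparation, LP samples ran from 64.6 to 102, against 0.194 in the naive sample. The ratio of the 3′ to the 5′ probe set of Gapdh, which rises as RNA is broken, was 2.81 and 3.98 on the CXCR6 Hi arrays, 4.19 and 6.96 on the CXCR6 Lo arrays and 1.51 on the naive array. For Xist, a transcript of female cells, LP samples ran from 181 to 215, against 0.864 in the naive sample. Preparation, sex, RNA quality, tissue and disease cannot be told apart in any comparison with the single naive array. T cell markers (7 of 8 listed were measured) summed to 521 and 584 on the CXCR6 Hi arrays, 437 and 370 on the CXCR6 Lo arrays and 537 on the naive array. In bulk RNA, fewer cells of a type and less RNA per cell cannot be told apart.

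The promoters of Psmb8 and Psmb9, of their constitutive partners Psmb5 and Psmb6 and of Psme1 are shown because the comparisons below turn on these genes. No window of Psmb7 was used here, so its pair with Psmb10 is not shown. Each sequence is from RefSeq (build GRCm38.p6), runs 5′ to 3′ on the strand of its gene and covers 250 bases before to 50 bases after the annotated start. Psmb8 and Psmb9 lie close to each other on chromosome 17, within the MHC. Capitals mark matches to any of 4 motifs, searched on both strands: the core of the interferon-stimulated response element (GAAANNGAA), the gamma-activated site bound by STAT dimers (TTCNNNGAA), the antioxidant response element bound by the NRF factors (TGACNNNGC) and the CCAAT box (CCAAT).
Psmb8 (chr17:34197945-34198244, plus strand): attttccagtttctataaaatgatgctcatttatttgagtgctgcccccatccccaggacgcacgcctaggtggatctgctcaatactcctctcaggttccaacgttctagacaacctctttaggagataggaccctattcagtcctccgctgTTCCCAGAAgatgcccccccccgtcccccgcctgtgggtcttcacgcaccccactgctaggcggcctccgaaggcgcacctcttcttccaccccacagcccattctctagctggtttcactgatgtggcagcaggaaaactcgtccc
Psmb5 (chr14:54617946-54618245, minus strand): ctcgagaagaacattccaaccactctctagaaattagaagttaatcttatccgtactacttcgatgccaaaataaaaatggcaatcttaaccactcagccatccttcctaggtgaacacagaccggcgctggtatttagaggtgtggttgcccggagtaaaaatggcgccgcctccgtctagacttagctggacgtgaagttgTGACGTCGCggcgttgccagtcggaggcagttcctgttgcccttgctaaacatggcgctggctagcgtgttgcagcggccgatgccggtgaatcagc
Psmb9 (chr17:34187281-34187580, minus strand): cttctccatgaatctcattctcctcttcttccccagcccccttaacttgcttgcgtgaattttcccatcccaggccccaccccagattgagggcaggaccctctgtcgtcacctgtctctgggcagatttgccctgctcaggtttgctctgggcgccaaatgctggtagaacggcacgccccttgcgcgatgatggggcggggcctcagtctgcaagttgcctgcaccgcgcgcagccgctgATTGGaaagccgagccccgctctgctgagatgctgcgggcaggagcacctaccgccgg
Psmb6 (chr11:70525107-70525406, plus strand): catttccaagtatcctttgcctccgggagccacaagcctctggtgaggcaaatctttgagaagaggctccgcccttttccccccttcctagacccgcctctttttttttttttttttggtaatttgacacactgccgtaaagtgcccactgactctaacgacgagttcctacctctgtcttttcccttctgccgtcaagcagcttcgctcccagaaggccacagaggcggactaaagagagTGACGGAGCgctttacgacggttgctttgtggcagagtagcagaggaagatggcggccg
Psme1 (chr14:55578244-55578543, plus strand): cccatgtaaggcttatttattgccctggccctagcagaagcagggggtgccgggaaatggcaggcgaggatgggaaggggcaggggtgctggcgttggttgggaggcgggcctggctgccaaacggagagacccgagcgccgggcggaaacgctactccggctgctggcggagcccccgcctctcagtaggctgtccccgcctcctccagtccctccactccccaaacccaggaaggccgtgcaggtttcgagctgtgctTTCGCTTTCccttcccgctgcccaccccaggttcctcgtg

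Each of these 5 windows held 1 match and none held matches that overlap. The matches were a gamma-activated site in Psmb8, beginning 97 bases before the start, an interferon response core on the opposite strand of Psme1, beginning 11 bases into the transcript, and an antioxidant response element in Psmb5 and in Psmb6, at 47 and 9 bases before the start. The match in Psmb9 was a CCAAT box on the opposite strand, and the Psmb10 window held none of the 4 motifs. Among all 32851 promoter windows of this length, 8.56% held the interferon response core, 8.30% the gamma-activated site, 12.4% the antioxidant response element and 37.4% a CCAAT box. Among the 37 windows of the proteasome genes that are subunits, activators or chaperones, the numbers with a match were 6, 2, 6 and 14. A match is a description of the letters, and the lack of one says only that these letters are not in this window.

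Between the subsets, the inducible catalytic subunits Psmb8, Psmb9 and Psmb10 had higher signals on both CXCR6 Hi arrays than on both CXCR6 Lo arrays, with log2 differences of 0.61 to 0.88 that did not pass the test across all genes. Psmb8, the inducible subunit with chymotrypsin-like activity, had signals of 65.7 and 85.4 on the CXCR6 Hi arrays, against 43.4 and 38.0 on the CXCR6 Lo arrays. The arrays did not overlap, and the naive array, at 57.3, lay between the subsets. Its log2 difference was 0.88 (SE 0.26), with an adjusted p of 0.708 by limma. Psmb10, which replaces the trypsin-like subunit, had 20.7 and 27.9 on the CXCR6 Hi arrays, against 14.5 and 15.1 on the CXCR6 Lo arrays. Its log2 difference was 0.70 (SE 0.26, adjusted p = 0.761 by limma), again with no overlap between the subsets. Psmb9, which replaces the caspase-like subunit, had 36.1 and 55.1 on the CXCR6 Hi arrays, against 31.2 and 27.5 on the CXCR6 Lo arrays. The lower CXCR6 Hi array lay close to the higher CXCR6 Lo array, and the log2 difference was 0.61 (SE 0.31, adjusted p = 0.790 by limma). Psme1, the PA28 alpha subunit, had 45.2 and 65.8 on the CXCR6 Hi arrays, against 42.8 and 41.5 on the CXCR6 Lo arrays. Its log2 difference was 0.37 (SE 0.29, adjusted p = 0.819 by limma), and 1 CXCR6 Hi array stood well above the other 3.

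The only probe set for Psme2, the PA28 beta subunit, also carries the symbol Psme2b, so it is not counted among the 44 genes and was not tested. It had signals of 78.8 and 97.4 on the CXCR6 Hi arrays, 66.5 and 58.9 on the CXCR6 Lo arrays and 89.2 on the naive array. The subsets did not overlap, and the naive array lay within the range of the CXCR6 Hi arrays. A second, dimmer probe set of Psmb8 had 7.82 and 12.3 on the CXCR6 Hi arrays, 8.74 and 8.02 on the CXCR6 Lo arrays and 0.784 in naive T cells. On that probe set the subsets overlapped, and all LP arrays were above the naive array, which was under the array median. The manufacturer marks it as able to bind other transcripts (_x_at).

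**Figure D1:**
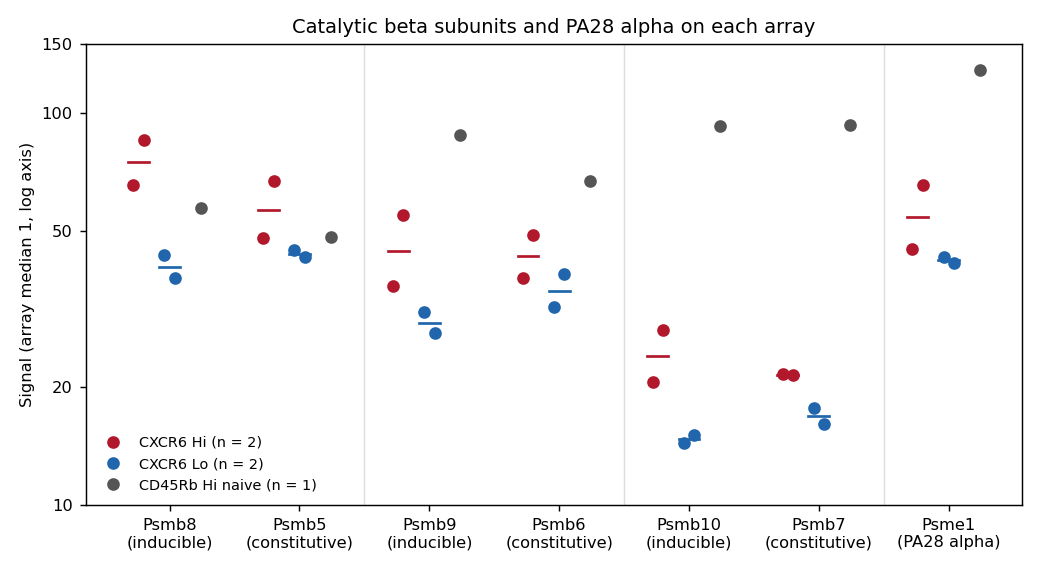
Signals (log axis, array median 1) of the inducible catalytic subunits beside their constitutive partners, and of Psme1, with a point per array and a bar at the geometric mean of each subset (n = 2 arrays each, naive n = 1). The CXCR6 Hi arrays lie above the CXCR6 Lo arrays for each gene but Psmb6, and the naive array lies between the subsets for Psmb8 but above all LP arrays for Psmb9, Psmb10, Psmb6, Psmb7 and Psme1.

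The constitutive partners had smaller differences between the subsets, none of which passed the test. Psmb5, the constitutive chymotrypsin-like subunit, had 48.0 and 67.0 on the CXCR6 Hi arrays, against 44.8 and 42.9 on the CXCR6 Lo arrays. Psmb6, the caspase-like subunit, had 38.0 and 49.0 on the CXCR6 Hi arrays, against 32.0 and 38.8 on the CXCR6 Lo arrays. Psmb7, the trypsin-like subunit, had 21.6 and 21.5 on the CXCR6 Hi arrays, against 17.7 and 16.2 on the CXCR6 Lo arrays. The subsets overlapped for Psmb6 and not for Psmb5 or Psmb7, and the log2 differences were 0.37 (SE 0.28), 0.29 (SE 0.27) and 0.35 (SE 0.22), in the order just given.

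To set each inducible subunit against its partner on the same array, the difference of their log2 signals was taken and centred on its mean over the 5 arrays. Such a difference removes a shift shared by both genes, but its zero has no meaning of its own. For Psmb8 minus Psmb5, the centred values were 0.29 and 0.19 on the CXCR6 Hi arrays, -0.21 and -0.34 on the CXCR6 Lo arrays and 0.08 on the naive array. The subsets did not overlap, and their means differed by 0.51. For Psmb10 minus Psmb7, the values were -0.04 and 0.40 on the CXCR6 Hi arrays, -0.28 and -0.08 on the CXCR6 Lo arrays and 0.00 on the naive array. The subset means differed by 0.36, and the nearest arrays of the subsets lay close together. For Psmb9 minus Psmb6, the values were -0.06 and 0.18 on the CXCR6 Hi arrays, -0.03 and -0.49 on the CXCR6 Lo arrays and 0.40 on the naive array. The subsets overlapped, and the naive array was above all LP arrays. These differences carry no test.

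**Figure D2:**
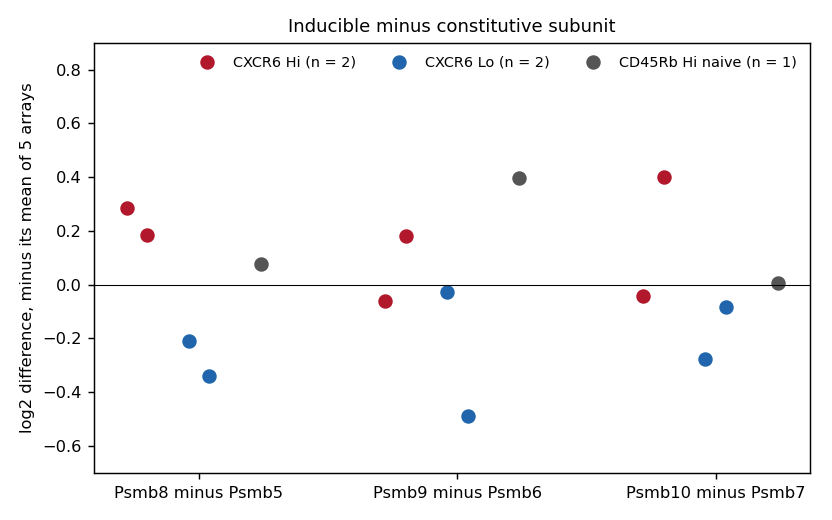
Difference of log2 signals of each inducible subunit and its constitutive partner on each array, minus the mean of that difference over the 5 arrays (y axis), with a point per array. CXCR6 Hi points lie above CXCR6 Lo points for Psmb8 minus Psmb5 and for Psmb10 minus Psmb7, and they overlap for Psmb9 minus Psmb6.

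Across all 44 genes, 36 had a log2 difference above 0 between CXCR6 Hi and CXCR6 Lo, against 57.5% of all genes, and the median was 0.29, against 0.08 over all genes and 0.12 over genes with a mean signal of at least 1. None of the 44 passed in either direction, and neither did any other gene (0% of 18193 genes higher and 0% lower). At an unadjusted p under 0.05, 2 of the 44 were higher by limma (Psmb8 and Psmc3) and 0 were lower, against 3.37% and 3.18% of all genes. By the methods' t-test 0 of the 44 passed after Benjamini-Hochberg adjustment, against 1 of all genes. At an unadjusted p under 0.05 by that test 3 of the 44 were higher, against 1283 of 18193 genes higher or lower. Both CXCR6 Hi arrays were above both CXCR6 Lo arrays for 22 of the 44 genes, against 25.1% of all genes, and below both for 3, against 14.3%. Of the 10907 genes with a mean signal of at least 1, 65.4% had a difference above 0. Both CXCR6 Hi arrays were above both CXCR6 Lo arrays for 3590 of these 10907 genes and below both for 1216.

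The excess of genes on the CXCR6 Hi side moved with a single array. CXCR6 Hi replicate 2 was above CXCR6 Hi replicate 1 for 41 of the 44 genes, by a median of 0.31 on the log2 scale, while CXCR6 Lo replicate 2 was above CXCR6 Lo replicate 1 for 14. Over all genes these shares were 60.7% and 52.2%, and over genes with a mean signal of at least 1 they were 68.6% and 50.5%. The median between the CXCR6 Hi arrays was 0.13 over all genes and 0.16 over those brighter genes. Without CXCR6 Hi replicate 2, 29 of the 44 genes had a difference above 0 and the median was 0.11, against 0.04 over all genes. Without CXCR6 Hi replicate 1 these were 40 and 0.43, against a median of 0.16 over all genes. With quantile normalization, 25 of the 44 were above 0 and the median was 0.07, while all genes had a median of -0.04. Psmb8, Psmb9 and Psmb10 all stayed above 0, with differences of 0.35 to 0.60 with quantile normalization and 0.31 to 0.69 without CXCR6 Hi replicate 2. Summed T cell markers, given above, were also higher on both CXCR6 Hi arrays than on both CXCR6 Lo arrays, and the Gapdh 3′ to 5′ ratio was lower. Of the 7 T cell markers, 6 had a difference above 0 and Cd3e had -0.04. The subsets overlapped for Cd3e, Cd247 and Cd5. Neutrophil markers (4 of 6 listed were measured, and 0 were at a signal of 0) summed to 17.8 and 15.9 on the CXCR6 Hi arrays, against 30.0 and 27.2 on the CXCR6 Lo arrays. Of the 11 epithelium markers, 9 were higher on replicate 2 than on replicate 1 in both subsets. The part of these in the result was not tested.

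The largest differences between the subsets, besides that of Psmb8, were in dim genes and in a lid subunit. Psmb11, the thymus-specific beta subunit, had signals of 0.068 and 0.085 on the CXCR6 Hi arrays, against 0.097 and 0.36 on the CXCR6 Lo arrays. Psma8, a testis alpha subunit, had 0.098 and 0.112 on the CXCR6 Hi arrays, against 0.26 and 0.156 on the CXCR6 Lo arrays. Both genes lay below the array median on every array, and their log2 differences were -1.30 (SE 0.74) and -0.94 (SE 0.35). Psmd13, a scaffold subunit of the lid, had 20.6 and 25.6 on the CXCR6 Hi arrays, against 16.8 and 11.2 on the CXCR6 Lo arrays, a log2 difference of 0.74 (SE 0.32, adjusted p = 0.766 by limma). Its subsets did not overlap.

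By role, the 6 ATPases had a median difference of 0.43, with both CXCR6 Hi arrays above both CXCR6 Lo arrays for 4 of them (Psmc1, Psmc3, Psmc4 and Psmc5), against 25.1% of all genes. The 8 alpha subunits had a median of 0.18 (4 of 8 without overlap on the CXCR6 Hi side), the 4 structural beta subunits 0.34 (2 of 4) and the 3 non-ATPase subunits of the base, which include ubiquitin receptors, 0.35 (2 of 3). The 8 lid subunits had a median of 0.13 (3 of 8), and the 3 assembly chaperones of the regulatory particle a median of 0.00 (0 of 3). The other activators, Psme3 (PA28 gamma) and Psme4 (PA200), had differences of 0.15 and -0.07.

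**Figure D3:**
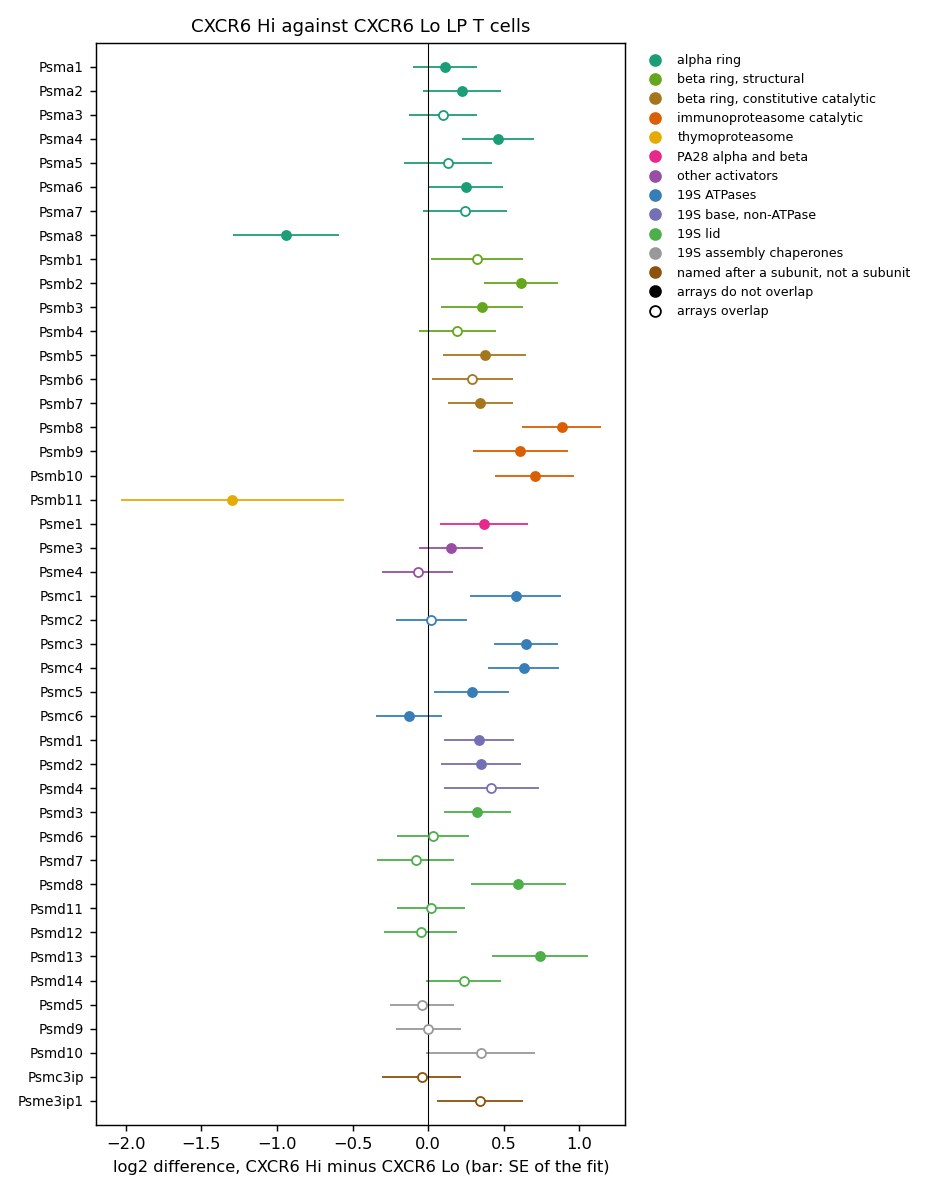
Log2 difference of CXCR6 Hi minus CXCR6 Lo (x axis, bar: SE of the limma fit) for the 44 genes, coloured by role, with filled points where the arrays of the subsets do not overlap (n = 2 arrays each). The points of 36 genes lie right of 0, those of Psmb8, Psmb10 and Psmb9 reach 0.88, 0.70 and 0.61, and no gene passed the test.

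Against naive T cells, the proteasome genes lay on both sides of 0, and which of them rose depended on the probe sets used. In LP T cells (both subsets, 4 arrays) 4 of the 44 rose and 10 fell, against 15.1% and 18.8% of all genes, and 30 did not pass. The median log2 difference was -0.58, against -0.14 over all genes and -0.42 over genes with a mean signal of at least 1. All LP arrays were above the naive array for 9 of the 44 genes, against 35.0% of all genes, and below it for 26, against 40.9%. Of the 10907 genes with a mean signal of at least 1, 1542 rose and 2968 fell. All LP arrays were above the naive array for 3524 of these 10907 genes and below it for 5797. With quantile normalization, which moved the median of all genes to 0.00, the median of the 44 was -0.17. The same test without any of the 4 LP arrays in turn left 0 of the 44 that rose, and it left 0 that fell without CXCR6 Hi replicate 1, CXCR6 Lo replicate 1 or CXCR6 Lo replicate 2 and 1, Psmb10, without CXCR6 Hi replicate 2. Over all genes, 0 of the 18193 genes passed without CXCR6 Lo replicate 1 or CXCR6 Lo replicate 2, 5.19% rose and 4.53% fell without CXCR6 Hi replicate 1, and 5.49% rose and 5.16% fell without CXCR6 Hi replicate 2. The log2 differences of the 4 genes that rose then ran from 1.23 to 1.52, and those of the 10 that fell from -2.40 to -1.07. The naive group has 1 array, whose spread was taken from the LP arrays. Of the 4 genes that rose, 3 were read from probe sets marked as able to bind other transcripts (_s_at or _x_at). Without such probe sets 1 of the 44 rose and 11 fell. With the mean of probe sets 0 of the 4 passed as higher.

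Among the catalytic subunits, 1 inducible and 1 constitutive gene fell by a like amount, while 18.8% of all genes fell. Psmb10 had signals of 20.7 and 27.9 (CXCR6 Hi) and 14.5 and 15.1 (CXCR6 Lo) on the LP arrays, against 92.5 on the naive array. Psmb7, whose product that of Psmb10 replaces, had 21.6 and 21.5 (CXCR6 Hi) and 17.7 and 16.2 (CXCR6 Lo), against 93.4 on the naive array. All LP arrays were far below the naive array for both genes, and the log2 differences were -2.30 (SE 0.30, adjusted p = 0.0174 by limma) and -2.29 (SE 0.24, adjusted p = 0.0145 by limma). Psmb10 minus Psmb7 differed by -0.01 between LP and naive T cells. Psmb9 had 27.5 to 55.1 on the LP arrays, all below the 87.8 of naive T cells, but its log2 difference of -1.28 (SE 0.35) did not pass (adjusted p = 0.0648 by limma). With quantile normalization it passed (-1.43, adjusted p = 0.0412 by limma).

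Psmb8 and Psmb5 had log2 differences of -0.05 (SE 0.29) and 0.04 (SE 0.31) against naive T cells, and the naive signals of 57.3 and 48.5 lay within the range of the LP arrays. The dimmer probe set of Psmb8, given above, had a log2 difference of 3.53, and with the mean of both probe sets Psmb8 was higher in LP T cells, with a log2 difference of 1.74 (adjusted p = 0.0377 by limma). That call rests on the dimmer, _x_at probe set. Psmb6 had 67.2 on the naive array, above all LP arrays, and a log2 difference of -0.79 (SE 0.30, adjusted p = 0.125 by limma). Psme1 fell, with 41.5 to 65.8 on the LP arrays, against 129 on the naive array (log2 difference -1.43, SE 0.32, adjusted p = 0.0447 by limma). The shared probe set of Psme2 and Psme2b had a log2 difference of -0.27. Psme3 and Psme4 had -0.21 and -0.11 and did not pass.

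In the alpha ring, which gates the entry to the barrel, 2 of 8 genes rose and 1 fell, against 15.1% and 18.8% of all genes. Psma3 had signals of 212 and 245 on the CXCR6 Hi arrays and 217 and 209 on the CXCR6 Lo arrays, against 79.6 on the naive array. Psma6 had 206 and 259 on the CXCR6 Hi arrays and 203 and 185 on the CXCR6 Lo arrays, against 78.3 on the naive array. The 4 LP arrays were alike and well above the naive array for both, with log2 differences of 1.47 (SE 0.25, adjusted p = 0.0261 by limma) and 1.43 (SE 0.28, adjusted p = 0.0325 by limma). The value of Psma6 is from a probe set that can bind other transcripts, and its further probe sets ran from -0.23 to 0.71. The further, dimmer probe set of Psma3 had -0.45. Psma8 fell, with 0.098, 0.112, 0.26 and 0.156 on the LP arrays, against 0.527 on the naive array (log2 difference -1.86, SE 0.39, adjusted p = 0.0385 by limma), all of them under the array median. The other 5 alpha genes ran between -1.15 (Psma7, adjusted p = 0.0632 by limma) and 0.88 (Psma2, adjusted p = 0.0919 by limma).

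None of the 4 structural beta genes passed. Psmb4 had 152 and 196 on the CXCR6 Hi arrays and 158 and 144 on the CXCR6 Lo arrays, against 99.6 on the naive array, a log2 difference of 0.70 (SE 0.28, adjusted p = 0.140 by limma). Psmb2 had 13.9 and 17.2 on the CXCR6 Hi arrays and 10.8 and 9.5 on the CXCR6 Lo arrays, against 25.5 on the naive array, a log2 difference of -1.03 (SE 0.28, adjusted p = 0.0618 by limma). All LP arrays lay above the naive array for Psmb4 and below it for Psmb2, so members of the same ring stood on opposite sides. Psmb11 had 0.184 on the naive array, within the range of the LP arrays.

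In the 19S particle, 3 of the 6 ATPases fell and 1 rose, against 18.8% and 15.1% of all genes. Psmc4 had 30.7 and 32.5 on the CXCR6 Hi arrays and 22.4 and 18.5 on the CXCR6 Lo arrays, against 81.6 on the naive array (log2 difference -1.69, SE 0.26, adjusted p = 0.0229 by limma). Psmc5 and Psmc3 also fell, with log2 differences of -1.31 (SE 0.28) and -1.09 (SE 0.24). Psmc2 had 142 and 169 on the CXCR6 Hi arrays and 160 and 146 on the CXCR6 Lo arrays, against 62.9 on the naive array, and rose by 1.29 (SE 0.26, adjusted p = 0.0354 by limma). These 6 products sit in a single ring, and the differences of their genes ran from -1.69 to 1.29, with the naive array above all LP arrays for 5 and below them for Psmc2. The value of Psmc2 is from a probe set that can bind other transcripts. Its further probe sets had 0.33 and 0.22, with the naive array within the LP range. In the base, the scaffold subunit Psmd1, Psmd2, which docks ubiquitin shuttle factors, and the ubiquitin receptor Psmd4 had differences of -0.62, 0.16 and -0.62 and did not pass.

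Of the 8 lid genes, 1 rose and 1 fell, against 15.1% and 18.8% of all genes. Psmd11 had 87.8 and 102 on the CXCR6 Hi arrays and 93.6 and 93.1 on the CXCR6 Lo arrays, against 34.5 on the naive array (log2 difference 1.45, SE 0.25, adjusted p = 0.0268 by limma). Psmd8 had 19.5 and 29.6 on the CXCR6 Hi arrays and 17.0 and 14.8 on the CXCR6 Lo arrays, against 57.4 on the naive array (log2 difference -1.56, SE 0.35, adjusted p = 0.0438 by limma). The LP and naive arrays did not overlap for either. The value of Psmd11 is from a probe set that can bind other transcripts. Its further probe sets with a mean signal of 1 or more had -2.05, 2.56, -0.47 and -1.87. The deubiquitinase of the lid, Psmd14, had a log2 difference of 0.57 (SE 0.28) and did not pass, and the other 5 lid genes ran from -0.84 to 0.01. Among the assembly chaperones Psmd9 fell, with 3.80 to 4.10 on the LP arrays, against 12.1 on the naive array (log2 difference -1.61, SE 0.24, adjusted p = 0.0211 by limma). Psmd5 and Psmd10 had differences of -0.85 and -0.54 and did not pass. Psmc3ip, which acts in meiotic recombination with a partner and is no subunit, fell by 1.97 on the log2 scale (SE 0.29), and Psme3ip1 had a difference of 0.16.

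**Figure D4:**
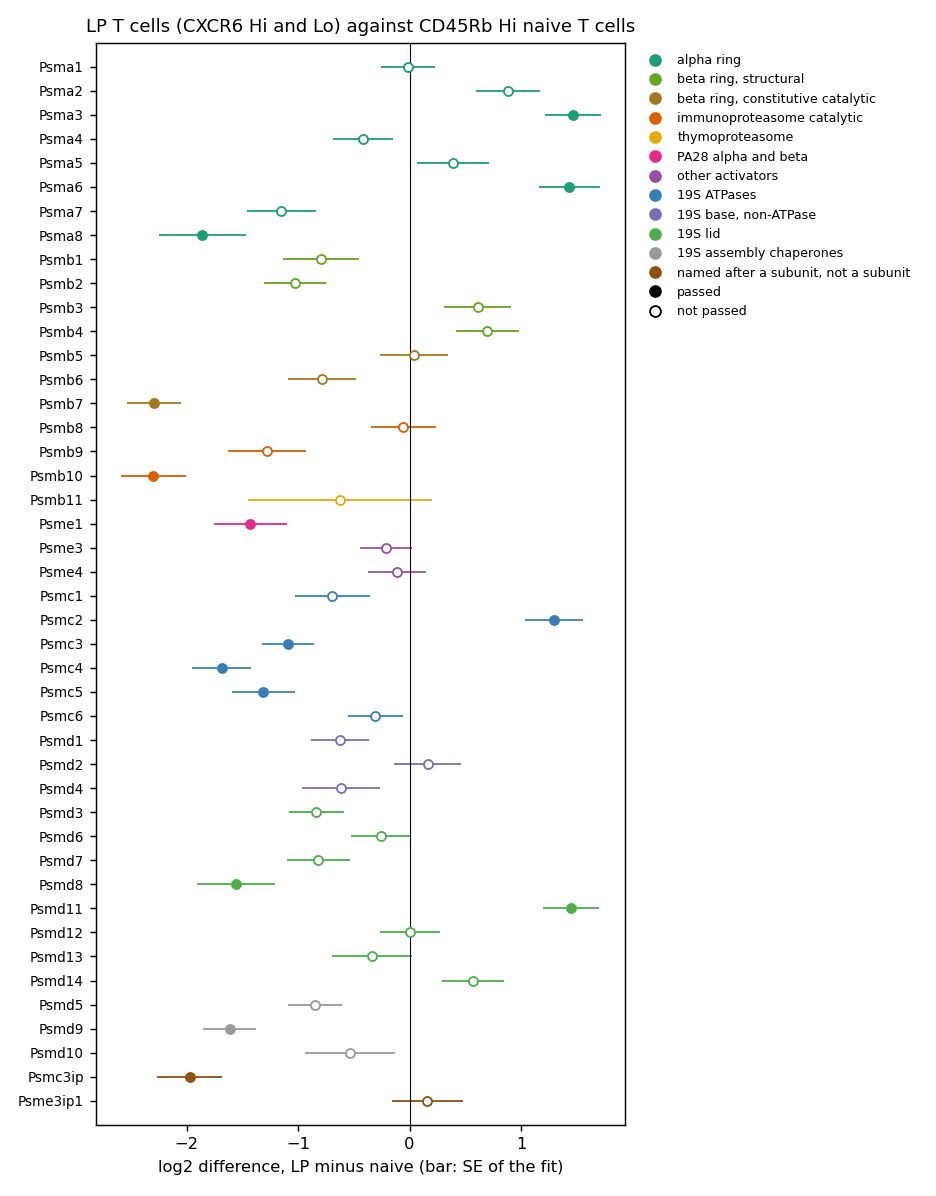
Log2 difference of LP T cells (CXCR6 Hi and CXCR6 Lo, 4 arrays) minus CD45Rb Hi naive T cells (1 array) for the 44 genes (x axis, bar: SE of the limma fit), coloured by role, with filled points for genes that passed. The 4 genes that rose lie between 1.29 and 1.47 and the 10 that fell between -1.09 and -2.30.

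How far a gene's value rests on the chosen probe set was looked at for the 23 genes with more than 1. Of 37 further probe sets whose mean signal was 1 or more, over 21 genes, 18 (48.6%) had the opposite sign to the one used in LP against naive T cells. For the 4 genes that rose, 6 of 10 further probe sets were of opposite sign, and for the genes that fell this was 1 of 4. Of the 4 that rose, 3 (Psma6, Psmc2 and Psmd11) were read from probe sets that the manufacturer marks as able to bind other transcripts (_s_at or _x_at), against 1 of the 10 that fell (Psmc3ip). Without such probe sets Psma6 had a log2 difference of -0.23, with 73.7, 111, 69.5 and 68.4 on the LP arrays, against 92.6 on the naive array. Psmc2 had 59.7, 66.7, 57.1 and 43.0 on the LP arrays, against 44.5 on the naive array, a log2 difference of 0.33 that did not pass. Psmd11 then fell, with 10.6, 11.3, 10.9 and 7.02 on the LP arrays, against 40.6 on the naive array (log2 difference -2.05, adjusted p = 0.0273 by limma). Psma3 still rose without such probe sets, but its call was lost when its probe sets were averaged (log2 difference 0.51, adjusted p = 0.321 by limma), and its further probe set had -0.45. With the mean of probe sets none of the 4 passed as higher, and the 2 genes that then rose were others, Psmb8 and Psmd13.

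Some pairs of probe sets differed widely. A further probe set of Psme3 had 1.36 to 1.74 on the LP arrays, against 36.5 on the naive array, while the brighter set used had 13.5 to 15.6, against 16.7. A further probe set of Psmd13 had 1.88 to 3.35 on the LP arrays, against 0.006 on the naive array. The probe sets of Psmc4 had the same direction, at -1.69 and -1.24, as had those of Psmc3ip, at -1.97 and -1.98.

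**Figure D5:**
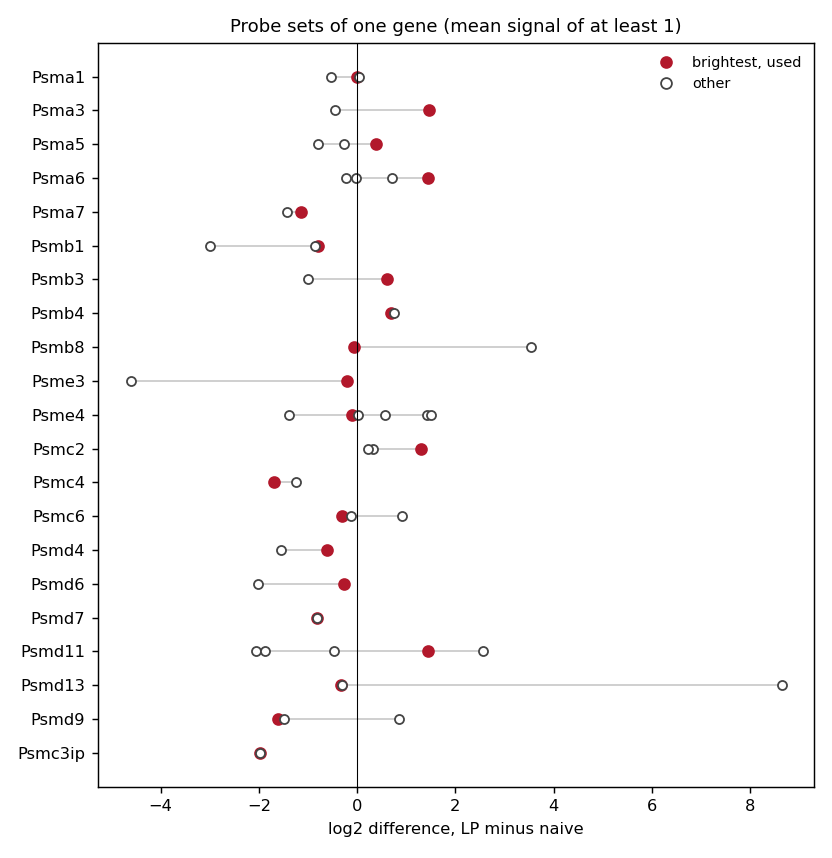
Log2 difference of LP minus naive T cells (x axis) for every probe set whose mean signal was 1 or more, for the 21 genes with more than 1 such probe set, with the brightest one, which was used, filled and the others open. For Psmd11 the points run from -2.05 to 2.56 and for Psmb8 from -0.05 to 3.53.

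Each subset was also set against the same naive array. In CXCR6 Hi T cells 4 of the 44 genes rose and 6 fell, against 13.2% and 15.3% of all genes, and in CXCR6 Lo T cells 3 rose and 10 fell, against 12.8% and 16.7%. With quantile normalization, 4 rose and 5 fell in CXCR6 Lo T cells. The comparisons share the naive array, so their likeness is not a result. Psmb10 fell by 1.94 on the log2 scale in CXCR6 Hi T cells (adjusted p = 0.0297 by limma) and by 2.65 in CXCR6 Lo T cells (adjusted p = 0.0203 by limma), and Psmb7 had -2.12 in CXCR6 Hi T cells and -2.46 in CXCR6 Lo T cells, both past the threshold. Psme1 had -1.24 in CXCR6 Hi T cells (adjusted p = 0.0766 by limma) and fell by 1.61 in CXCR6 Lo T cells (adjusted p = 0.0463 by limma). Psmb8 had 0.39 in CXCR6 Hi T cells and -0.50 in CXCR6 Lo T cells, and neither passed.

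Beyond the subunits, 4 genes that help to build the proteasome fell in LP T cells. Of 6 assembly and inhibitor genes, 0 rose and 4 fell against naive T cells (Pomp, Psmg2, Psmg3 and Psmg4), against 15.1% and 18.8% of all genes, and the median difference was -1.48. As for the subunits, none of the 18193 genes passed without either CXCR6 Lo array. Psmg3, part of a chaperone pair that helps to form the alpha ring, had 6.99 and 10.5 on the CXCR6 Hi arrays and 5.09 and 5.62 on the CXCR6 Lo arrays, against 29.9 on the naive array (log2 difference -2.14, SE 0.34, adjusted p = 0.0237 by limma). Psmg2, of the other such pair, had 13.0 and 17.8 on the CXCR6 Hi arrays and 11.3 and 9.96 on the CXCR6 Lo arrays, against 42.1 on the naive array, and fell by 1.73 (SE 0.31). Pomp, the maturation factor of the core, fell by 1.63 (SE 0.27). Nfe2l1, whose product NRF1 drives proteasome genes when proteasome activity is short, had 4.43 and 5.37 on the CXCR6 Hi arrays and 5.16 and 3.67 on the CXCR6 Lo arrays, against 24.4 on the naive array, and fell by 2.41 (SE 0.33, adjusted p = 0.0190 by limma). It was the only one of 4 measured regulators that passed, and Ngly1, which activates NRF1, had a difference of 0.64.

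The counts of the next lists in LP against naive T cells also stand against 15.1% of all genes higher and 18.8% lower. Of the 7 measured ubiquitin receptors and deubiquitinases, 0 rose and 1 fell, the shuttle factor Ubqln4 (-3.43, SE 0.25, with 3.75 to 5.05 on the LP arrays, against 46.8 on the naive array), while Ubqln2 had -1.30 and did not pass. Of 4 genes for ubiquitin activation and p97, 0 rose and 1 fell, the p97 cofactor Nploc4 (-3.57, SE 0.29), and its partner Ufd1 had -0.62. Of 9 genes for loading of MHC class I, 0 rose and 3 fell (Tapbp, Tapbpl and Pdia3, by 1.68, 1.41 and 1.87). Differences above 0 were seen for 3 of the 9, Calr, Canx and B2m (1.04, 0.98 and 0.91). All LP arrays were above the naive array for these, but none of them passed. The peptide transporter genes Tap1 and Tap2 had -0.58 and -0.23 and did not pass. Between the subsets Tap2 had 14.6 and 16.1 on the CXCR6 Hi arrays, against 8.20 and 7.48 on the CXCR6 Lo arrays, and Pdia3 had 30.6 and 18.6, against 11.4 and 7.58. The subsets did not overlap for either, but no gene of these lists passed between the subsets.

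Of the 10 measured interferon regulators of immunoproteasome genes, 2 rose (Ifngr1 and Ifng) and 1 fell (Irf9) in LP against naive T cells, against 15.1% and 18.8% of all genes. Ifngr1, a chain of the interferon-gamma receptor, had 102 and 141 on the CXCR6 Hi arrays and 95.7 and 93.6 on the CXCR6 Lo arrays, against 12.4 on the naive array (log2 difference 3.10, SE 0.30, adjusted p = 0.0136 by limma). Ifng, chosen after its values were seen, had 156 and 248 on the CXCR6 Hi arrays and 42.4 and 38.2 on the CXCR6 Lo arrays, against 17.6 on the naive array. It was highest in CXCR6 Hi T cells with no overlap, and it had a log2 difference of 2.29 between the subsets (SE 0.33, adjusted p = 0.529 by limma) and of 2.34 against naive T cells (SE 0.37, adjusted p = 0.0231 by limma). Irf1, an interferon-induced factor for Psmb9, had 82.4 and 91.0 on the CXCR6 Hi arrays and 99.97 and 74.4 on the CXCR6 Lo arrays, against 58.0 on the naive array, and did not pass. Stat2, with 0.226 to 1.22 on the LP arrays, against 5.80 on the naive array, had a difference of -3.17 (SE 1.14) and did not pass.

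Markers of other cells also differed between LP and naive T cells. B cell markers (8 of 9 listed were measured) summed to 4.87 to 6.41 on the LP arrays, against 58.0 on the naive array. Of these 8, 7 had a difference below 0, while Pax5 rose by 5.08, with 0.673 to 1.22 on the LP arrays, against 0.025. Those of macrophages and dendritic cells (8 of 9) summed to 268 to 350, against 116, and those of fibroblasts and smooth muscle (9 of 9) to 100 to 163, against 9.42. Of the 8 macrophage and dendritic cell markers, 5 had a difference above 0, while Cd68, Mrc1 and Fcgr3 had -0.86, -0.88 and -0.10. Of the 9 fibroblast and smooth muscle markers, 8 had a difference above 0 and Col1a1 had -1.49. Neutrophil markers (4 of 6) summed to 15.9 to 30.0 in LP T cells, against 177 in naive T cells, where S100a8 and S100a9 made up 61.2 and 114, while Csf3r and Mmp8 had log2 differences of 0.69 and 0.64. Colonic epithelium markers (11 of 11) summed to 42.2 to 100 in LP T cells, against 98.2 in naive T cells, where Car1 alone made up 85.2. Of these 11, 9 had a difference above 0, with a median of 2.02, and 2 passed as higher, Krt8 (9.36 to 29.6 in LP T cells, against 0.387 in naive T cells) and Krt18. No marker of these lists was at a signal of 0, and their part in the differences of the proteasome genes was not tested.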

How the data were processed

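CXCR6 Hi (n = 2), CXCR6 Lo (n = 2) and CD45Rb Hi naive (n = 1) CD4+ T cells were measured on Affymetrix arrays. The intensity values deposited by the authors are on a linear scale with an array median of 1. The methods name GeneSpring and the submitters' processing notes name RMA. Neither a log transform nor quantile normalization shows in the values, and how background was treated is not given in the sources used here. RNA came from an RNeasy kit, whose type differs between methods and labels. With 5 arrays the precision is limited.

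Of 45101 probe sets, 34945 have 1 gene symbol, 932 several and 9160 none, and 64 are controls. Through the Entrez ID, 34741 of the first kind were found in RefSeq. The brightest probe set stood for each of 18193 genes. Signals were log2 transformed with 0 set to 0.001, with no filter on dim genes. A linear model with the 3 groups was fitted by limma 3.58.1 under R 4.3.3. Tests were two-sided moderated tests from eBayes, with Benjamini-Hochberg adjustment across the 18193 genes and a threshold of 0.05. The fit has 2 residual and 1.678 prior degrees of freedom, and it was tested on simulated data. A gene that passed is said to have risen or fallen.

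The genes, roles and lists were chosen with earlier results of these data known. Described in full are Psmb5 to Psmb10, Psme1 and Psme2, the genes with the highest and lowest LP difference in each role of at least 3, the 4 with the largest subset difference, the 2 with the largest LP difference in each list, and Tap1, Tap2, Irf1 and Nfe2l1. Other genes that passed are named as well. Alternatives were the mean of probe sets, no _s_at or _x_at probe sets, quantile normalization, leaving out genes under the 40th percentile of mean signal, signal plus 1, a floor at a signal of 1, robust fitting with a variance trend, a replicate block, each LP array left out, and the methods' t-test. Promoter windows were matched for 37 of the 44 genes. A planned comparison of protein sequences was not run. Figures were drawn with matplotlib 3.10.9 in Python 3.11.15.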

Additional observations from a re-analysis of the deposited data

Results flagged for a closer look

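Psmb8 is singled out because both CXCR6 Hi arrays lay above the naive array and both CXCR6 Lo arrays below it. Its log2 difference from CD45Rb Hi naive T cells was 0.39 in CXCR6 Hi T cells and -0.50 in CXCR6 Lo T cells. The difference between these effects is the comparison of the subsets, which did not pass (log2 difference 0.88, adjusted p = 0.708 by limma). With the mean of the probe sets of Psmb8, which takes in the dimmer _x_at probe set, both subsets were above the naive array.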

How the results depend on the processing

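In LP against naive T cells, 4 of the 44 genes rose and 10 fell. These counts were 2 and 8 with the mean of probe sets (0 of the 4 and 6 of the 10 among them), 1 and 11 without _s_at and _x_at probe sets, 5 and 16 with the filter, 6 and 18 with signal plus 1, 8 and 18 with a variance trend, and 4 and 4 by the methods' t-test (6 and 12 at an unadjusted p under 0.05). With each LP array left out they were 0 and 0 to 1. With the replicate block they were 0 and 3, against 9.37% and 9.93% of all genes. The numbers are not known to pair the arrays: the correlation of same-numbered deviations was 0.02 over all genes and 0.19 over genes with a mean signal over 1, and 9 of 11 epithelium markers were higher on replicate 2 in both subsets. The block changed no median, and under it 0 genes passed in each of the other comparisons.

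In CXCR6 Hi T cells against naive T cells, 4 rose and 6 fell (shares of all genes in brackets, here 13.2% and 15.3%). With the mean of probe sets the counts were 2 and 5 (8.87% and 10.6%). Without _s_at and _x_at probe sets they were 1 and 7 (12.5% and 15.1%), and with the filter 5 and 13 (21.9% and 36.3%). Signal plus 1 gave 8 and 15 (14.6% and 25.4%) and a variance trend 8 and 14 (18.4% and 23.4%). The block gave 0 and 0 (0% and 0%), as did the methods' t-test (0.066% and 0.12%). In CXCR6 Lo T cells, 3 rose and 10 fell (12.8% and 16.7%). With the mean of probe sets the counts were 1 and 7 (8.64% and 11.7%). Without _s_at and _x_at probe sets they were 1 and 10 (12.0% and 16.5%), and with the filter 4 and 18 (19.5% and 39.8%). They were 5 and 19 with signal plus 1 (13.1% and 27.2%) and 5 and 21 with a variance trend (17.4% and 25.4%). The block and the methods' t-test gave 0 and 0 (0% and 0%, and 0.049% and 0.038%). Quantile normalization gave 4 and 5 (12.8% and 10.1%). Between the subsets 0 passed throughout.

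The median of the 44 genes between the subsets, 0.29, was 0.067 with quantile normalization and 0.11 to 0.43 with an array left out. In LP against naive T cells, -0.58 moved to -0.17 with quantile normalization, -0.40 with signal plus 1 and -0.38 with the floor, and ran from -0.68 to -0.45 with an array left out. In CXCR6 Hi T cells, -0.39 moved to -0.11 with quantile normalization and -0.66 with the mean of probe sets, and ran from -0.58 to -0.18. In CXCR6 Lo T cells, -0.71 moved to -0.13 with quantile normalization and ran from -0.78 to -0.56.

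Not every change of sign against naive T cells is listed here. Without _s_at and _x_at probe sets the sign turned for Psma6 (-0.23) and Psmd11 (-2.05). With the mean of probe sets it turned for Psmd11 (-0.80) and Psmb8 (1.74, and 1.46 in CXCR6 Lo T cells). It also turned for Psmd13, which then passed as higher. With quantile normalization it turned for Psmb8 (0.13), among others. In LP T cells 18 of the 44 genes were then above 0, against 13 without it. With an array left out the sign turned for Psmb8 (-0.15 to 0.041, the highest without CXCR6 Hi replicate 1). It did so too for Psmb5 (-0.079 to 0.16, the lowest without CXCR6 Hi replicate 2). The next counts are for 504 results for single genes under the alternatives, which are a part of all results of the 44 genes. Of these 504, 355 kept their direction and their side of the threshold, 122 no longer passed, 19 passed only then and 8 turned. Apart from the settings that leave out arrays or probe sets, the cause was not tested. With 1 naive array, its own spread is not measured.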
